A study of Mus musculus with 12 samples.

Results

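Ikaros binding in macrophages was compared between 3 and 8 h of stimulation with lipopolysaccharide (LPS), the cell-wall endotoxin of Gram-negative bacteria. The members are hotspots, stretches of the genome where tags from immunoprecipitated Ikaros chromatin piled up, from the 2 wild-type libraries labelled with these times. Hotspots that overlapped a hotspot of untreated wild-type input DNA by at least 1 bp were dropped. That left 7109 of 7161 hotspots at 3 h and 13796 of 13843 at 8 h, together 20905 regions, beside 50940 hotspots deposited in 10 lists of the series. All cells were primary bone-marrow-derived macrophages, grown from the marrow of C57BL/6J mice. Both Ikaros libraries used a goat polyclonal antibody (M-20, Santa Cruz). Wild-type libraries for RelA at 3 and 8 h and for Ikaros before LPS (0 h), and littermate-control libraries for RelA at 3 and 8 h, served for overlaps. Each group had 1 library, so no spread between cultures is known, no test between times was possible, and the design gives no p-value. Ranges in brackets are 95% intervals that cover only the counting of hotspots, which are not independent of their neighbours.

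Ikaros, encoded by Ikzf1, is a zinc finger DNA-binding protein best known for directing the development of lymphocytes, and it can recruit chromatin remodelling and histone deacetylase complexes. LPS is sensed by a Toll-like receptor on macrophages and moves RelA, the transactivating subunit of NF-kB, into the nucleus, where it switches on inflammatory genes. Ikaros and RelA can occupy the same regulatory regions of macrophages. A hotspot list holds no expression values, so the labelled cell type could not be checked against markers. In a pool of cells, more cells with Ikaros at a site and more Ikaros per cell cannot be told apart. The name under which the 8 h Ikaros list was deposited gives 3 h beside 8 h, and the label was followed.

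Ikaros was listed at most of its 3 h sites again at 8 h, and the 8 h list added many weaker and narrower sites. Of the 3 h hotspots, 1269 (17.9%) had no 8 h hotspot by 1 bp and are called lost. Of the 8 h hotspots, 7971 (57.8%) had no 3 h hotspot and are called new. These words describe list membership, because each list holds only regions past a limit set by the authors, at a lowest z score of 9.82 at 3 h and 9.75 at 8 h. The z score is the authors' measure of enrichment, and the scale of the tag densities and the depth of the libraries are unknown. With both lists held to their 7109 hotspots of highest z score, 64.3% of the 3 h sites had an 8 h counterpart and 36.5% of 8 h hotspots were absent at 3 h. With a reciprocal overlap of 50% these shares were 69.9% and 64.0%.

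The hotspots covered 4055290 bp at 3 h and 8167625 bp at 8 h, a ratio of 2.01. New hotspots held 47.8% of the bases covered at 8 h, a smaller share than their 57.8% of the hotspots. Of the bases covered at 3 h, 79.6% were covered again at 8 h. Few calls turned on hotspots that barely met or barely missed, since 55 of 5912 overlapping pairs overlapped by under 100 bp and 34 new hotspots lay within 100 bp of a 3 h hotspot.

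The shares of lost and new hotspots were highest on the X chromosome. There, 46 of 143 hotspots of the 3 h list were lost, or 32.2% (24.6 to 40.5). The next highest share was 23.9% (19.3 to 28.9) on chromosome 3, with an interval that overlaps, and the lowest on any chromosome was 13.5%. Of its 8 h hotspots 177 of 272 were new, or 65.1% (59.1 to 70.7), close to the next highest share of 63.7% (58.6 to 68.5). The lowest was 51.8% (48.7 to 54.9) on chromosome 11. Chromosomes were set side by side after their values were seen. Their z scores and widths were not compared, and the part of these in the shares was not tested.

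Whether a site was listed at both times followed its strength in its own list. In the lowest decile of the 3 h list by z score, 61.0% of hotspots (57.3 to 64.6) were present at 8 h, and in the highest decile 97.7% (96.4 to 98.7). In the 8 h list, 11.7% of the lowest decile (10.1 to 13.6) and 95.4% of the highest (94.1 to 96.4) were present at 3 h. The strongest sites of both times were thus nearly all common to both. New sites were not confined to the weak end of the 8 h list. In its deciles 6, 8 and 9, 38.9%, 61.2% and 79.7% of hotspots were present at 3 h. Ranking by the highest tag density gave the same order, from 64.0% to 96.6% at 3 h and from 13.3% to 93.5% at 8 h.

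**Figure D1:**
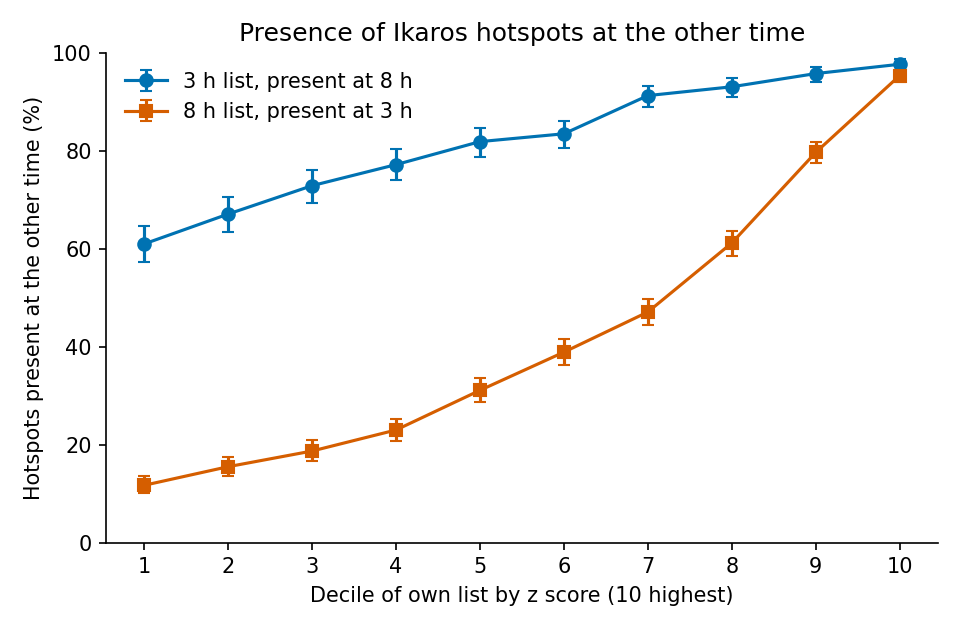
Share of hotspots (y axis, %) that overlapped a hotspot of the other time, by decile of their own list ranked by z score (x axis), for the 3 h list (circles) and the 8 h list (squares); bars are exact 95% intervals. The 3 h list runs from 61.0% to 97.7% and the 8 h list from 11.7% to 95.4%.

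No site of very high z score was listed at a single time. None of the 167 hotspots of z 50 or more at 8 h was new (interval 0 to 2.18%), and none of the 73 at 3 h was lost (0 to 4.93%). In the highest decile at 8 h, 64 of 1380 hotspots were new, or 4.64% (3.59 to 5.88). New hotspots had a median z score of 12.48 and shared 8 h hotspots one of 19.61, and 622 new hotspots (7.80%) reached that level. Placed by percentile within their own list, new hotspots had a median of 34.4 (33.6 to 35.2) for z score and 35.7 (35.1 to 36.8) for highest density. Shared 8 h hotspots stood at 74.4 (73.5 to 75.3) and 72.8 (71.8 to 73.6). Lost hotspots also lay low in the 3 h list, at 25.9 (23.7 to 28.4) for z score and 31.3 (28.9 to 32.8) for density, against 56.2 (55.0 to 57.5) and 54.7 (53.8 to 55.7) for shared 3 h hotspots.

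The strongest new regions show what an 8 h site without a 3 h counterpart looks like. The region chr9:18272307-18273140 (mm9, coordinates as deposited) had the highest z score of any new hotspot, 43.8, with a highest density of 41.8. It met no RelA hotspot at either time and lay 480 kb from the nearest 3 h Ikaros hotspot. At chr2:130556279-130557043 the z score was 38.4, again with no RelA hotspot and at 100 kb from a 3 h hotspot. The widest new region, chr10:116712646-116714580, spanned 1934 bp with a z score of 36.9 and lay 4.47 kb from a 3 h hotspot. This region and chr2:132423724-132424544, with a z score of 36.7, were also listed for Ikaros before LPS, so of the 3 Ikaros lists they were missing from that of 3 h alone. Of the 5 strongest new regions only chr5:147617227-147618018, with a z score of 36.4, met RelA, and it did so at both times. In the highest quintile of the 8 h list by z score, RelA at 3 h met 19.2% of new and 45.1% of all hotspots. RelA at 8 h met 16.3% and 24.0%.

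Of the 5 strongest lost regions, 4 met RelA at 3 h. In the highest quintile of the 3 h list by z score, 55.7% of all hotspots did. Among the 5 regions the highest z score belonged to chr4:133720531-133722488, at 40.8 over 1957 bp. The next belonged to chr6:99125254-99125956, at 40.0 with a highest density of 79.2. Both met RelA at 3 h and not at 8 h, and so did chr17:29237627-29238733, with a z score of 36.0, and chr12:8399484-8400326, with 33.5. Only chr10:21889012-21889629, with a z score of 36.7, met no RelA hotspot. None of these 5 had Ikaros at 0 h, and the nearest 8 h hotspot lay between 2.75 and 40.1 kb away.

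Sites listed at a single time were narrow. The median width was 483 bp (479 to 488) for new and 685 bp (680 to 690) for shared 8 h hotspots. It was 409 bp (395 to 425) for lost and 561 bp (555 to 567) for shared 3 h hotspots. Below 500 bp, 16.5% of the 5161 hotspots at 8 h were present at 3 h, against 90.4% of the 670 between 1 and 2 kb. Width moves with z score in these lists, so the 2 measures are not separate evidence. The shape of the signal within a hotspot was alike, with mean density at 0.42 of the highest for new, 0.40 for shared 8 h, 0.42 for lost and 0.41 for shared 3 h hotspots.

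**Figure D2:**
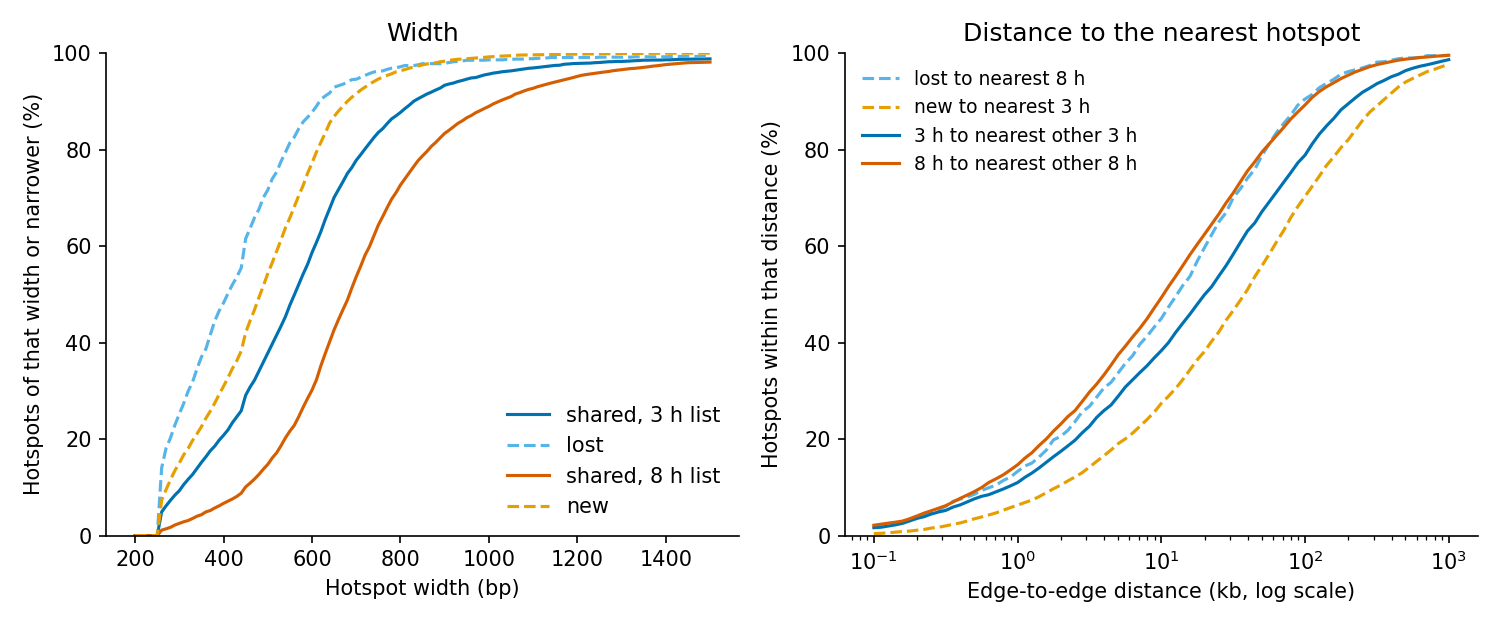
Left, cumulative share of hotspots (y axis, %) by width in bp (x axis) for shared, lost and new hotspots; right, cumulative share (y axis, %) within an edge-to-edge distance in kb (x axis, log scale). Dashed curves of lost (median 409 bp) and new (483 bp) hotspots lie left of the shared ones, and new hotspots lie farthest from a 3 h hotspot, at a median of 38.0 kb.

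Where a 3 h and an 8 h hotspot met each other and nothing else, the same site could be followed. Of 5624 such pairs, 4319 (76.8%) had a higher highest density at 8 h, 4439 (78.9%) a higher z score and 4434 (78.8%) a greater width. The median highest density was 23.1 at 3 h and 29.8 at 8 h, with a median ratio within pairs of 1.28 (log2 0.35, interval 0.34 to 0.37). The median width was 560 bp at 3 h and 684 bp at 8 h. Centres lay a median of 42.0 bp apart, and 95.7% of pairs were within 200 bp. With each density divided by the median of its own list, 73.0% of pairs were higher at 8 h. These medians, 22.0 at 3 h and 23.0 at 8 h, depend on the limit of each list. The 8 h median also includes the new hotspots, so this scaling cannot remove a difference in depth. No scale common to both libraries is stated, so the size of the ratio is in the authors' units only. The order of sites was partly shared: Spearman's rank correlation across pairs was 0.58 for z score, 0.62 for highest density and 0.53 for width, over sites that share the same 2 libraries.

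The narrow sites that were strongest at 3 h had lower densities at 8 h. All 6 pairs with a z score of 100 or more at 3 h and under 1 kb wide were less dense at 8 h. Their median ratio was 0.767 (log2 -0.38). These pairs were chosen by their 3 h z score after their values were seen. Such a choice favours a fall, and its part in the lower densities was not tested. At chr10:11211605-11212154 the highest density was 308 at 3 h and 250 at 8 h. At chr3:61962937-61963513 it was 316 and 251, and at chr8:3754059-3754788 it was 335 and 271. None of the 6 met RelA, and all had Ikaros before LPS. Hotspots lying on input, which were dropped, were also less dense at 8 h, with a median ratio of 0.806 and 8 of 45 pairs higher at 8 h. Whether these 6 sites share a property with input regions was not tested.

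**Figure D3:**
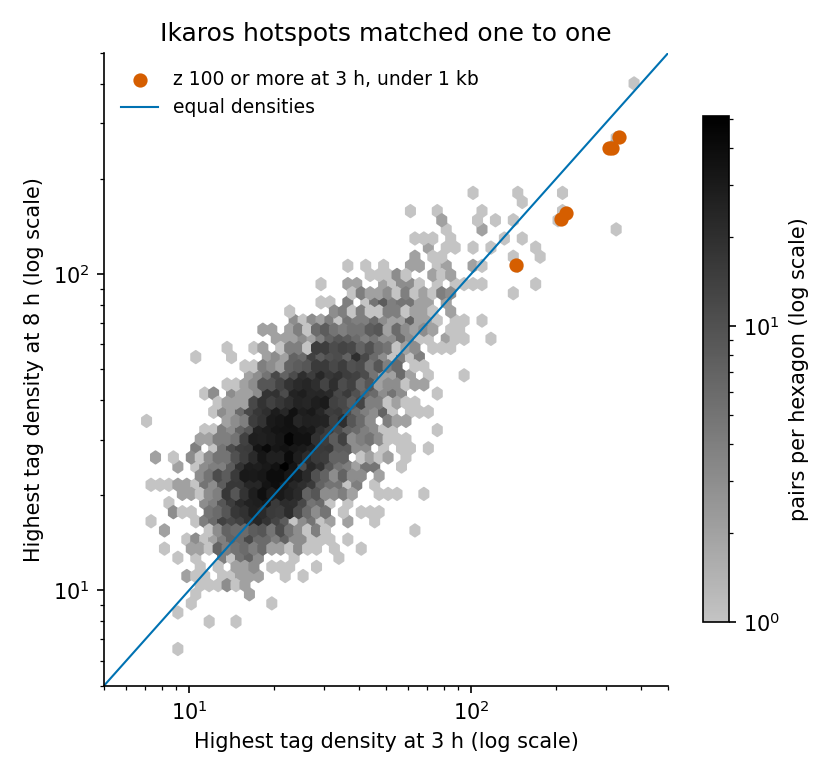
Highest tag density at 3 h (x axis, log scale) and 8 h (y axis, log scale) of 5624 hotspots matched one to one, shaded by pairs per hexagon. Most lie above the line of equal densities (76.8%), while the 6 narrow sites of z 100 or more at 3 h (orange) lie below it.

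The strong broad sites named here went in either direction. The region chr17:35334776-35339923 had the highest z score of both lists, 214 at 3 h and 204 at 8 h, with highest densities of 378 and 401. At chr19:10056974-10062038 the highest density was 99.5 at 3 h and 181 at 8 h, and the z score 64.2 and 116. In contrast, chr5:92773991-92778167, a 3 h coordinate, had 330 at 3 h and 139 at 8 h. All 3 met RelA at both times. Of all 8 pairs with a z score of 100 or more at 3 h, narrow or broad, 1 was denser at 8 h. The chr19 region was named for its z score at 8 h, and such a choice favours a rise.

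The largest moves in rank among pairs joined a short hotspot at one time to a wider one at the other. At chr8:86593724-86594587 a hotspot of 263 bp with a z score of 9.90 at 3 h stood where 8 h had 863 bp and 43.5. The highest density there was 13.9 and 60.0. At chr12:3495944-3496721 it was 10.8 and 55.0. The largest drop was at chr6:82967244-82967526, with a highest density of 64.6 at 3 h and 15.8 at 8 h and a width of 782 and 282 bp. None of these 3 sites met RelA at either time, but some of the other largest falls did. RelA was met at both times by chr19:22022554-22022846, where the highest Ikaros density was 45.2 at 3 h and 16.8 at 8 h. It was met at 3 h alone by chr10:21781746-21782090. The 5 largest rises had 3 h widths between 251 and 275 bp, close to the 251 bp that is the shortest hotspot in both lists. The 5 largest falls had 8 h widths between 282 and 433 bp.

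Broad Ikaros regions of 3 h were often split into separate hotspots at 8 h. At 3 h 47 hotspots were at least 2 kb wide, at 8 h 40 were, though the 8 h list was longer. Of the 47, 21 met 2 or more separate 8 h hotspots, 22 met 1 and 4 met none. Their bases were 74.9% covered at 8 h, and 14 of the 43 with a hotspot at 8 h were denser then. Of the 40 broad hotspots at 8 h, 12 met 2 or more 3 h hotspots, 28 met 1 and 86.5% of bases were covered at 3 h. Of these 40, 17 were denser at 3 h, so broad hotspots picked from either list were more often denser in the list they were picked from. Of the 47, 45 met RelA at 3 h and 20 at 8 h, and of the 40, 37 met RelA at 3 h and 28 at 8 h. Over whole lists RelA at 3 h met 37.1% of 3 h and 23.8% of 8 h Ikaros hotspots and RelA at 8 h 14.5% and 10.8%, and the part of width in this difference was not tested.

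A region of chromosome 12 held the widest hotspot of either list. At 3 h Ikaros covered chr12:27125445-27135741 as a single hotspot of 10296 bp, with a z score of 65.3 and a highest density of 128. At 8 h 8 hotspots of 295 to 1634 bp stood there, the densest at 78.5. The adjoining 3 h hotspot chr12:27135740-27141520 met 5 at 8 h, and its highest density of 86.5 compared with 38.9. Over the region and its flanks the hotspots numbered 10 at 3 h and 16 at 8 h, while the bases they covered went from 22041 to 11433. So the count was higher where coverage and density were lower. RelA had 13 hotspots there at 3 h and 1 at 8 h.

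**Figure D4:**
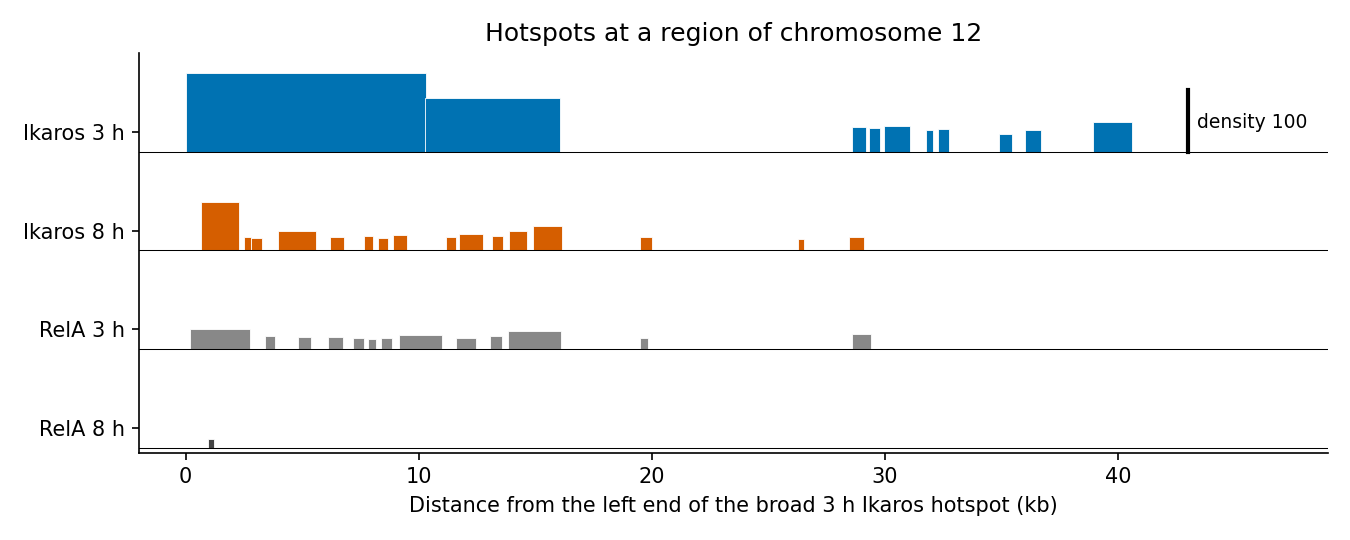
Hotspots of Ikaros and RelA at 3 and 8 h along a region of chromosome 12, as distance in kb from the left end of its widest 3 h Ikaros hotspot (x axis); each bar spans a hotspot and its height is the highest tag density in it (scale bar, 100). Ikaros covered 22041 bp in 10 hotspots at 3 h and 11433 bp in 16 at 8 h.

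Other broad regions ran alike or opposite. On chromosome 16, chr16:97666525-97673256 (6731 bp, highest density 98.9) met 3 hotspots at 8 h, the densest at 57.3. Its neighbour chr16:97673371-97679464 (50.4) met 4, the densest at 28.8. Both chr14:103450319-103459810 and chr12:56587307-56593007 remained single hotspots, with highest densities of 151 and 117 at 3 h and 170 and 123 at 8 h. Growth was seen at chr2:129192351-129197449, which spanned 5098 bp at 8 h with a highest density of 118, of which 21.8% was covered at 3 h, by hotspots of up to 69.3.

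New hotspots lay farther from 3 h sites than those lay from each other. Their median distance to the nearest 3 h hotspot was 38.0 kb (35.8 to 39.9), 27.4% lay within 10 kb and 6.32% within 1 kb. Hotspots of the 3 h list lay 20.0 kb (18.9 to 21.8) from the nearest other, and shared 8 h hotspots 26.0 kb (24.2 to 27.8). Lost hotspots lay 13.0 kb (11.2 to 14.8) from an 8 h hotspot, but the 8 h list is denser, and its own members lay 10.4 kb (9.94 to 10.8) apart. The gap between new and 3 h hotspots depended on how the lists were limited. With lists equal by highest density, the median distance of new hotspots was 21.8 kb (20.3 to 24.0), with an interval that overlaps that of the 3 h spacing. With both lists limited to z 15 or more it was 111 kb, against 58.1 kb between 3 h hotspots.

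New sites near and far from a 3 h site had like z scores. The median z score was 12.3 for new hotspots up to 1 kb from a 3 h hotspot, 12.7 from 1 to 10 kb and 12.3 beyond 100 kb. Their median highest density was 21.1 in the nearest and 17.5 in the farthest of these groups. RelA at 3 h was met by 15.9% (12.8 to 19.4) of the nearest and 10.2% (8.99 to 11.5) of the farthest. Among new hotspots in the highest quintile of z score, the most isolated was chr17:91196727-91197363, 1683 kb from a 3 h hotspot with a z score of 21.8. The next, chr4:70206936-70207752 at 1648 kb, had a z score of 24.0. Neither met RelA.

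Clusters, here runs of 3 or more hotspots in which each gap is at most 12500 bp, held a larger share of the 8 h list. That order turned with lists equal by z score, though not with lists equal by highest density. At 8 h 1045 clusters held 29.3% of hotspots (28.5 to 30.1), and at 3 h 389 clusters held 20.9% (19.9 to 21.8). With both lists at their 7109 hotspots of highest z score, the 8 h share was 17.5% (16.6 to 18.4), below that at 3 h. With lists equal by highest density it was 24.2% (23.2 to 25.2), above it. New hotspots were clustered less often than shared 8 h ones, at 25.8% (24.8 to 26.8) against 34.1% (32.9 to 35.3). Lost hotspots and shared 3 h hotspots were at 23.0% (20.7 to 25.4) and 20.4% (19.4 to 21.5). Of the clustered new hotspots 78.6% lay in a cluster with at least 1 shared hotspot, and 87.3% of all 8 h clusters held one. Most of these clusters were not clusters at 3 h, since 725 of the 1045 spanned fewer than 3 hotspots of the 3 h list. Of the 8 h clusters 808 were mixed, 104 held shared hotspots alone and 133 held new ones alone.

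The cluster with most members at 8 h, 16, is the broken-up region on chromosome 12. The next, chr11:117807473-117853704, held 14 hotspots, 9 of them shared and 11 with RelA at 3 h, where 3 h had 7. The cluster chr4:144823455-144866800 held 13, where 3 h had 9. Clusters without any 3 h counterpart were smaller. The 6 hotspots of chr1:133576150-133600456 spanned 24.3 kb with a highest z score of 32.4 and met no RelA hotspot. The 6 of chr1:9759513-9796254 spanned 36.7 kb, with a highest z score of 16.3.

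At 3 h 220 of 389 clusters had every member at 8 h and 4 had none. The cluster chr2:164246245-164284388 held 12 hotspots at 3 h, of which 5 were present at 8 h. At chr3:142159504-142193478 it was 3 of 10. All 4 hotspots of chr8:96694972-96703542, with z scores up to 30.5, were lost. These 3 clusters were picked after their values were seen.

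Lost Ikaros hotspots met RelA less often than shared ones, at 3 h and at 8 h. The RelA lists differ in length, with 4972 hotspots at 3 h and 1878 at 8 h, and they met 37.1% and 14.5% of all 3 h Ikaros hotspots. They also differ in limit, with a lowest z score of 8.88 at 3 h and 10.9 at 8 h. RelA at 3 h met 297 of 1269 lost hotspots, or 23.4% (21.1 to 25.8), and 40.0% (38.8 to 41.3) of shared 3 h hotspots. RelA at 8 h met 26 lost hotspots, or 2.05% (1.34 to 2.99), and 17.2% (16.3 to 18.2) of the shared ones. Of sites with Ikaros and RelA at 3 h, RelA was listed again at 8 h at 24 of 297 (8.08%) where Ikaros was lost. Where Ikaros was present again it was 965 of 2337 (41.3%). In the highest quintile of the 3 h list, lost hotspots met RelA at 3 h at 30 of 46, or 65.2% (49.8 to 78.6). They met RelA at 8 h at 0 of 46 (interval 0 to 7.71%). Shared hotspots of that quintile met RelA at 3 h at 55.4% (52.7 to 58.0) and at 8 h at 24.9% (22.7 to 27.3). So for RelA at 3 h the overall order of lost and shared hotspots did not extend to the strongest sites, and in the quintile next to the highest the shares were 44.1% and 45.7%.

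Seen from RelA, Ikaros was most often present at 8 h where RelA was too. The RelA lists have unlike limits, and sites with RelA at both times and at 3 h alone were not matched for RelA z score. The part of RelA strength in these shares was not tested. Of 3 h Ikaros hotspots with RelA at both times, 965 of 989 (97.6%, 96.4 to 98.4) were present at 8 h. With RelA at 3 h alone it was 1372 of 1645 (83.4%, 81.5 to 85.2), and with no RelA 3462 of 4432 (78.1%, 76.9 to 79.3). The 43 sites with RelA at 8 h alone were present in 41 cases (95.3%, 84.2 to 99.4), too few to split by z score. The median Ikaros z score also differed, at 16.9 with RelA at both times, 15.2 with RelA at 3 h alone and 12.7 with none. Within each quintile of z score the share was higher with RelA at both times than with RelA at 3 h alone, from 85.7% against 65.4% in the lowest to 100% against 93.4% in the highest. In the highest quintile, sites with no RelA stood at 97.4% (95.9 to 98.5), above those with RelA at 3 h alone (90.7 to 95.5). The littermate RelA lists were limited to a highest density of 10 or more. With them the share was 98.5% (97.1 to 99.4) for RelA at both times and 93.7% (91.5 to 95.4) for RelA at 3 h alone. This difference was 4.84 percentage points, against 14.2 in the wild-type lists. With no littermate RelA the share was 79.3% (78.2 to 80.3), so the wider step there lay between no RelA and RelA at 3 h alone.

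**Figure D5:**
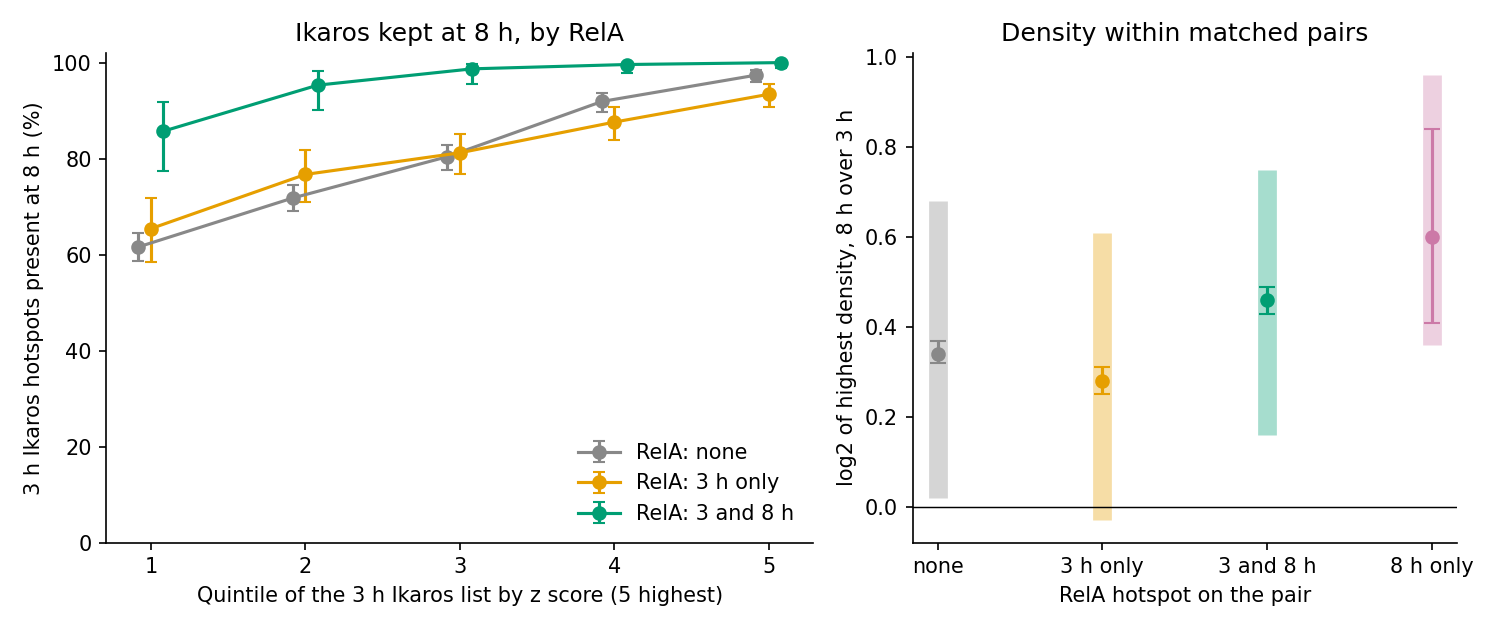
Left, share of 3 h Ikaros hotspots present at 8 h (y axis, %) by quintile of z score (x axis), for sites with no RelA, RelA at 3 h alone or RelA at both times, with exact 95% intervals; right, log2 ratio of highest Ikaros density, 8 h over 3 h (y axis), in matched pairs by RelA (x axis), with medians, 95% intervals of the median and quartile bars. Of the 3 groups drawn on the left, sites with RelA at both times lie highest in every quintile, and on the right their median log2 ratio was 0.46 against 0.28 with RelA at 3 h alone.

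Density within pairs, split in the same way, gave another order. Over all pairs, those with RelA at 3 h alone had a lower ratio than those with no RelA. Over all 3 h hotspots, presence at 8 h had the reverse order for these groups. Pairs were not matched for RelA z score either. The median log2 ratio of highest Ikaros density was 0.46 (0.43 to 0.49) in 921 pairs with RelA at both times. It was 0.28 (0.25 to 0.31) in 1325 pairs with RelA at 3 h alone and 0.34 (0.32 to 0.37) in 3339 pairs with no RelA. In 39 pairs with RelA at 8 h alone it was 0.60 (0.41 to 0.84), and 38 of them were denser at 8 h. Pairs with RelA at both times exceeded those with RelA at 3 h alone in all 5 quintiles of the pairs' mean log density, from 0.37 (0.14 to 0.51) against 0.17 (0.12 to 0.24) in the lowest to 0.52 (0.46 to 0.57) against 0.38 (0.31 to 0.45) in the highest. Intervals overlapped in the lowest quintile and in the middle one, and in the lowest the share of pairs denser at 8 h had the other order, at 67.1% against 70.2%. Against pairs with no RelA the margin was narrow in places, with 0.43 against 0.41 in the middle quintile and 0.49 against 0.48 in the next. By Ikaros at 0 h the intervals overlapped, at 0.37 (0.33 to 0.41) in 719 pairs with it and 0.35 (0.33 to 0.37) in 4905 without.

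New Ikaros hotspots met RelA less often than shared ones. RelA at 8 h met 492 new hotspots, or 6.17% (5.65 to 6.72), against 17.2% (16.3 to 18.2) of shared 8 h hotspots. RelA at 3 h met 926, or 11.6% (10.9 to 12.3), against 40.6% (39.3 to 41.8). New hotspots had the lower share within each quintile of z score, and for RelA at 8 h the shares ran from 3.86% against 7.45% in the lowest to 16.3% against 25.1% in the highest. Intervals overlapped for RelA at 8 h in the quintile above the lowest, at 5.27% (4.37 to 6.29) and 6.61% (4.72 to 8.96), and in the middle one, at 6.53% (5.43 to 7.77) and 8.80% (7.09 to 10.8). New hotspots were also narrower, and the part of width in these overlaps was not tested. Before LPS Ikaros was listed at 57 new hotspots, or 0.715% (0.542 to 0.926), and at 12.6% (11.8 to 13.5) of shared 8 h hotspots. Only 40 of 181 8 h Ikaros hotspots with RelA at 8 h alone were present at 3 h, or 22.1% (16.3 to 28.9), against 70.9% (68.8 to 72.9) of those with RelA at 3 h alone and 33.1% (32.2 to 34.1) of those with no RelA.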

How the data were processed

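Each file lists the hotspots of 1 library. The build mm9 and the tool CASAVA come from the submitters' processing notes. How tags were aligned and hotspots called, at which threshold and with or without input, is not given in the sources used here. For each hotspot the authors deposited a highest and a mean tag density, a signal of unstated scale, a z score and a p-value, per the file headers. Library depth is unknown, and whether starts count from 0 or 1 is not stated. Hotspots of 8 lists were compared by overlap of at least 1 bp after removal of those on input, and distances run edge to edge. Littermate RelA lists were limited to a highest density of 10 or more. Shares carry exact Clopper-Pearson intervals and medians order-statistic intervals. No mm9 annotation or genome was used here, so regions are named by coordinates and no sequence is printed. Named regions are those of highest z score or width in each class, the largest moves in rank, the most isolated and the largest clusters. Additions are marked, except that some broad regions were added by no fixed rule, after their values were seen. The members and lists were chosen with earlier results of these data known. The overlap, distance and cluster steps were tested on simulated lists, and 900 of 900 planted overlaps were found. Python 3.11.15, numpy 2.4.6, pandas 2.3.3, scipy 1.17.1, matplotlib 3.10.9 and bedtools 2.31.1 were used.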

Additional observations from a re-analysis of the deposited data

How the results depend on the processing

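No paired analysis was possible because each group holds 1 library, and no replicate could be left out. In all, 119 alternatives were run on 17 results. None of the 74 on the 11 results with a sign turned it. The order of the clustered shares at 8 and 3 h was not among these 11, and it turned with lists equal by z score. Of the 119, 64 left the value inside its interval (for rank correlations, within 0.05) and 55 moved it. Every alternative that left input hotspots in, or removed a wider zone around input, was among the 64. Leaving them in added only 52 hotspots at 3 h and 47 at 8 h, so it could hardly move a value. For differences, the interval ran between the outer ends of both groups' intervals. It is wider than an interval for the difference itself, so staying inside it was easier. The alternatives for pair densities and for RelA with presence at 8 h were chosen after seeing the data.

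The share of 3 h hotspots present at 8 h was 82.1%, and 69.9% with reciprocal overlap, 83.7% with a gap of up to 500 bp or at z 15 or more, 64.3% with lists equal by z score or the 8 h list alone cut to that length, and 61.4% with lists equal by density. The settings that gave 64.3% are the same cut, because the 3 h list is the shorter, though each is counted as an alternative. The new share of 57.8% became 64.0%, 55.8%, 62.0% (z 15 or more), 36.5% and 39.2%. New hotspots were narrower than shared ones by a difference in medians of -202 bp, and by -189 (reciprocal), -110 (equal by z), -139 (equal by density) and -137 bp (z 15 or more). With equal lists by z score and by density, their z percentile differed by -34.1 and -37.4 (from -40.0) and their density percentile by -29.9 and -32.7 (from -37.0).

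New hotspots within 10 kb, 27.4%, became 34.5% (reciprocal), 24.8% (gap), 34.8% (equal by density), 16.5% (z 15 or more), 19.0% within 5 kb and 55.9% within 50 kb. The clustered share of 29.3% became 17.5% and 24.2% (equal by z and by density), 15.8% (z 15 or more, with 8.58% at 3 h), 15.01% with a 5 kb gap and 44.4% with 25 kb. At 3 h it was 20.9%, so the order of the times turned with lists equal by z. The median distance of new hotspots, 38.0 kb, was 21.8 kb with lists equal by density and 111 kb at z 15 or more. Shared hotspots exceeded new ones in RelA at 8 h by 11.1 percentage points, by 28.9 with RelA at 3 h and by 6.71 with littermate RelA. Spearman's rank correlation of z scores over matched pairs was 0.64 with reciprocal overlap. Pairs denser at 8 h were 73.0% (list medians), 75.01% (reciprocal) and 80.6% (z 15 or more). The presence difference between RelA at both times and at 3 h alone, 14.2 points, became 23.0 and 22.9 (equal by z and by density), 17.1 (z 15 or more) and 4.84 (littermate).

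Library depth, the densities' scale and the calling limit bound all of these values: a site just under the limit at one time counts as lost or new. With 1 library a time, a library effect and an effect of time cannot be told apart.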

Other observations

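Hotspots that lay on input stood apart from the rest and were left out of every value above. They numbered 52 at 3 h and 47 at 8 h, with a median z score of 186 and 200 and a highest of 1518 and 1312. Of these, 46 and 45 were listed at the other time. The z scores of the strongest sites left after removal were 214 and 204.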
